A study of Mus musculus with 8 samples.

Results

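Cytochrome c oxidase, complex IV of the mitochondrial respiratory chain, contains several small subunits that exist as paired isoforms coded by separate genes. The 8 genes of these pairs were followed in single mouse hearts at E10.5. Cox6a2, Cox7a1 and Cox8b code for the muscle forms of subunits VIa, VIIa and VIII, and Cox6a1, Cox7a2 and Cox8a code for their ubiquitous partners. Cox4i1 codes for the general form of subunit IV and Cox4i2 for its second form. The genes were found through the array annotation by symbol or synonym, which gave 12 of the 22690 probe sets on the Affymetrix Mouse 430A 2.0 array, and all 12 were among the 16292 tested. Values are MAS5 signals, the intensity of a probe set on a linear scale, with a detection call of Present, Marginal or Absent. Hearts of 4 Dbh-/- embryos (called KO here) were set against hearts of 4 Dbh+/+ embryos (WT). Dbh is dopamine beta-hydroxylase, the enzyme that makes noradrenaline from dopamine, and the labels call the KO hearts adrenergic-deficient. The labels describe the hearts as matched in age and size and give each heart its own array, so a replicate is a separate embryo. The allele, the strain and the heart regions taken are not given in the sources used here.

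Complex IV passes electrons from cytochrome c to oxygen and pumps protons. Its catalytic core is coded by mitochondrial DNA, and the nuclear subunits around the core tune its activity and stability. In mammals the muscle forms of subunits VIa, VIIa and VIII belong to heart and skeletal muscle, while the ubiquitous forms are made in most tissues, and the heart is known to move from ubiquitous towards muscle forms as it matures. Cox4i2 is known from lung and from pericytes, and is induced by low oxygen in cultured mammalian cells. Since RNA came from whole hearts, fewer cells of a type and less RNA per cell cannot be told apart.

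The 250 bases before an annotated start are shown for 2 of the isoform pairs. In these pairs Cox7a1 and Cox8b varied widely among the hearts while Cox7a2 and Cox8a varied less. The Cox6a2 and Cox6a1 pair differed in the same way, but no window was matched for Cox6a2. The sequences are RefSeq's on build GRCm38.p6, given 5′ to 3′ on the gene's strand, with each CG dinucleotide in capitals. They lie at chr7:30183921-30184170 (plus strand) for Cox7a1, chr9:79759854-79760103 (minus strand) for Cox7a2, chr7:140900447-140900696 (minus strand) for Cox8b and chr19:7217617-7217866 (minus strand) for Cox8a. The Cox7a2 window lies inside the annotated span of the gene (chr9:79755241-79771422) and not before its outer start. The windows of Cox7a1, Cox8b and Cox8a lie directly before the annotated span of their gene.
Cox7a1: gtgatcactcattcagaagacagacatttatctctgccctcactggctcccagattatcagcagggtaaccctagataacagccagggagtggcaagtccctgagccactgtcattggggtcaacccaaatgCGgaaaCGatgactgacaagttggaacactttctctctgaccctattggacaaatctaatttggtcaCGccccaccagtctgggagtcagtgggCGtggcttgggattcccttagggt
Cox7a2: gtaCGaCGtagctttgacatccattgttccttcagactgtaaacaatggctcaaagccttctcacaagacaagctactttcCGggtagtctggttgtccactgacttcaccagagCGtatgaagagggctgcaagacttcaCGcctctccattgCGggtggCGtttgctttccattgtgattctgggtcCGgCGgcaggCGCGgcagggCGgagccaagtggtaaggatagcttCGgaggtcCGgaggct
Cox8b: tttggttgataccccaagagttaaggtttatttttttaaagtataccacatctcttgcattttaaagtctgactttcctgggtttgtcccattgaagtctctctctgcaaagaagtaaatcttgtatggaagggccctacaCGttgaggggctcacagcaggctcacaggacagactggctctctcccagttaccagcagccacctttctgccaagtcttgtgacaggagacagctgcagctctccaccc
Cox8a: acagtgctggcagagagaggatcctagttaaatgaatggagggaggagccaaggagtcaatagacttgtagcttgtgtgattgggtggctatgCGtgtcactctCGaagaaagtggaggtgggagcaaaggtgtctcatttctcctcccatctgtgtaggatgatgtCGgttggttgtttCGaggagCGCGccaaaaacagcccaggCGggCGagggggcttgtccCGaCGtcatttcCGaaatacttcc
The windows of the muscle isoforms held 4 CG dinucleotides for Cox7a1 and 1 for Cox8b, against 14 for Cox7a2 and 11 for Cox8a. Cox6a1, a ubiquitous form whose window is not printed, held 26. Over 32851 windows of the same length the median was 6, with quartiles of 2 and 16. Of these, 18.8% held as few CG as Cox8b or fewer and 44.4% as few as Cox7a1 or fewer. Shares holding as many or more were 29.4% for Cox7a2, 35.6% for Cox8a and 9.59% for Cox6a1. Windows were matched for 5 of the 8 genes and not for Cox6a2, Cox4i1 and Cox4i2, so the muscle form of subunit VIa is missing from this comparison. On either strand, the E-box letters CANNTG occurred once in the Cox7a1, Cox8b, Cox7a2 and Cox8a windows and in 66.2% of all windows. The ETS-type letters GGAAG occurred once in the Cox8b, Cox6a1 and Cox8a windows and in 64.1% of all windows. Neither TATAAA (12.4% of all windows) nor AAGGTCA (4.08%) was found in the 5 windows. These matches describe letters only.

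The share of probe sets with a Present call was 65.2% to 71.6% over the arrays, and precision is limited by their number. Mean array signal ran from 272.2 (KO 4) to 407.7 (KO 3), so signals of single hearts also carry the level of their array. Dbh itself had Absent calls in 8 of 8 hearts and mean signals of 2.51 ± 2.77 (KO) and 4.06 ± 4.85 (WT; SD, n = 4 each), too low to test the genotype labels. Cardiomyocyte markers were measured in every heart: 16 of 16 listed genes were tested, and their summed signal was 37166 to 69541 in KO and 33923 to 70381 in WT. The sample titles carry the unexplained numbers 541 (KO 3, KO 4, WT 3 and WT 4), 569 (KO 1, KO 2 and WT 2) and 570 (WT 1). KO 3, KO 4 and WT 3 stood apart in their markers, as described below. With limma, 0 of 16292 probe sets (0.0%) had an adjusted p under 0.05, and 217 (1.33%) were under 0.05 before adjustment.

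No cytochrome oxidase isoform was shown to differ between KO and WT hearts. The log2 differences of the 8 genes, KO minus WT, lay between -0.21 and 0.10, with 3 above 0 and 5 below, and a median of -0.03 against 0.02 over all 9126 tested genes. The signals of KO and WT hearts overlapped for each of the 12 probe sets, where 0.454% of all tested probe sets had groups that did not overlap. With a limma adjusted p of 0.99998 for each of the 12, 0 were called, against 0.0% of all tested probe sets. The differences were fitted on log2(signal + 16), a scale that can understate changes of dim probe sets. With 1 added in place of 16, the Cox8b difference was -0.154 rather than -0.089. For Cox4i2, also dim, it was -0.146 rather than -0.153. In the authors' deposited table, unadjusted p-values for these probe sets ran from 0.414 (Cox8a) to 0.999 (Cox6a2).

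Among the muscle isoforms, Cox6a2, the muscle form of subunit VIa, had signals of 893.3, 1107.8, 543.4 and 420.0 in KO hearts 1 to 4, against 878.3, 805.9, 398.0 and 883.4 in WT hearts 1 to 4. Low values were those of KO 3, KO 4 and WT 3, and the other 5 hearts lay close together. The log2 difference was -0.03 ± 0.31 (SE), with a 95% confidence interval from -0.66 to 0.60, or 0.631 to 1.51 times WT.

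Cox7a1, the muscle form of subunit VIIa, had signals of 315.2, 445.6, 183.2 and 116.9 in KO hearts and 386.7, 258.7, 92.4 and 237.0 in WT hearts. The same 3 hearts were lowest, and KO 2 was highest. The log2 difference was 0.10 ± 0.37 (SE), with an interval from -0.65 to 0.86, or 0.638 to 1.81 times WT.

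Cox8b, the muscle form of subunit VIII, gave low signals. They were 71.4, 77.1, 11.9 and 36.3 in KO hearts and 97.6, 34.8, 17.7 and 62.2 in WT hearts, and the detection call was Present in 7 of 8 hearts and Marginal in KO 3. KO 3 and WT 3 were lowest, while KO 4 and WT 2 were alike. The log2 difference was -0.09 ± 0.34 (SE), with an interval from -0.78 to 0.61, or 0.580 to 1.52 times WT.

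The ubiquitous partners were called Present in all 8 hearts. Cox6a1 had signals of 2969, 3548, 3527 and 2310 in KO hearts and 3820, 2688, 2707 and 2391 in WT hearts. On the signals as deposited, KO 4 and WT 4 were lowest and WT 1 was highest. After quantile normalization WT 4 (11.38 log2 units) and WT 3 (11.39) were lowest, so on neither scale was the order that of Cox6a2. The log2 difference was 0.09 ± 0.21 (SE), with an interval from -0.33 to 0.52, and a second probe set, which the deposited table names LOC383421, gave 0.05 ± 0.23.

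Cox7a2, the ubiquitous form of subunit VIIa, had signals of 5869, 6862, 7255 and 4986 in KO hearts and 6800, 6148, 6382 and 5938 in WT hearts. Its KO hearts held both the lowest and the highest value, in KO 4 and KO 3, the arrays of lowest and highest mean signal. After quantile normalization the lowest was WT 3 (12.53 log2 units) and the highest WT 2 (12.68). The log2 difference was -0.03 ± 0.16 (SE), with an interval from -0.36 to 0.30, and a second probe set gave 0.03 ± 0.19.

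Cox8a, the ubiquitous form of subunit VIII, had 3 probe sets. The brightest gave 742.5, 1046.5, 809.5 and 606.8 in KO hearts and 1207.7, 842.3, 654.7 and 1032.5 in WT hearts, with KO 4 and WT 3 lowest. Its log2 difference of -0.21 ± 0.27 (SE; interval -0.76 to 0.34) was the largest in size among the 8 genes. The second probe set gave -0.01 ± 0.28. The third, Present in 3 of 8 hearts with signals of 6.21 to 13.96, gave -0.10 ± 0.20. The brightest set's identifier ends in _x_at, Affymetrix's mark for probes that may also bind other transcripts, and the second set does not share that mark.

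Cox4i1, the general form of subunit IV, had signals of 2206, 2918, 2445 and 1685 in KO hearts and 2774, 2230, 1987 and 1977 in WT hearts. KO 4 was lowest and KO 2 highest on the signals as deposited. After quantile normalization WT 3 was lowest (10.93 log2 units), and KO 1 and KO 2 were highest (both 11.29). The log2 difference was 0.03 ± 0.22 (SE, interval -0.41 to 0.48). Cox4i2 was near the floor of the array, with 22.7, 26.1, 18.2 and 17.9 in KO hearts and 26.5, 10.2, 16.5 and 63.6 in WT hearts. It was called Present in 4 of 4 KO hearts and in 1 of 4 WT hearts, WT 4, which also had the highest signal. The log2 difference was -0.15 ± 0.27 (SE), with an interval from -0.70 to 0.40. Without WT 4 it was 0.16, so the direction rested on that heart. The marker list for smooth muscle and pericytes, which mixes the cell types, had a mean log2 level, centred over the 8 hearts, of -0.30 in WT 4. The part of pericytes in the Cox4i2 signals was not tested.

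**Figure D1:**
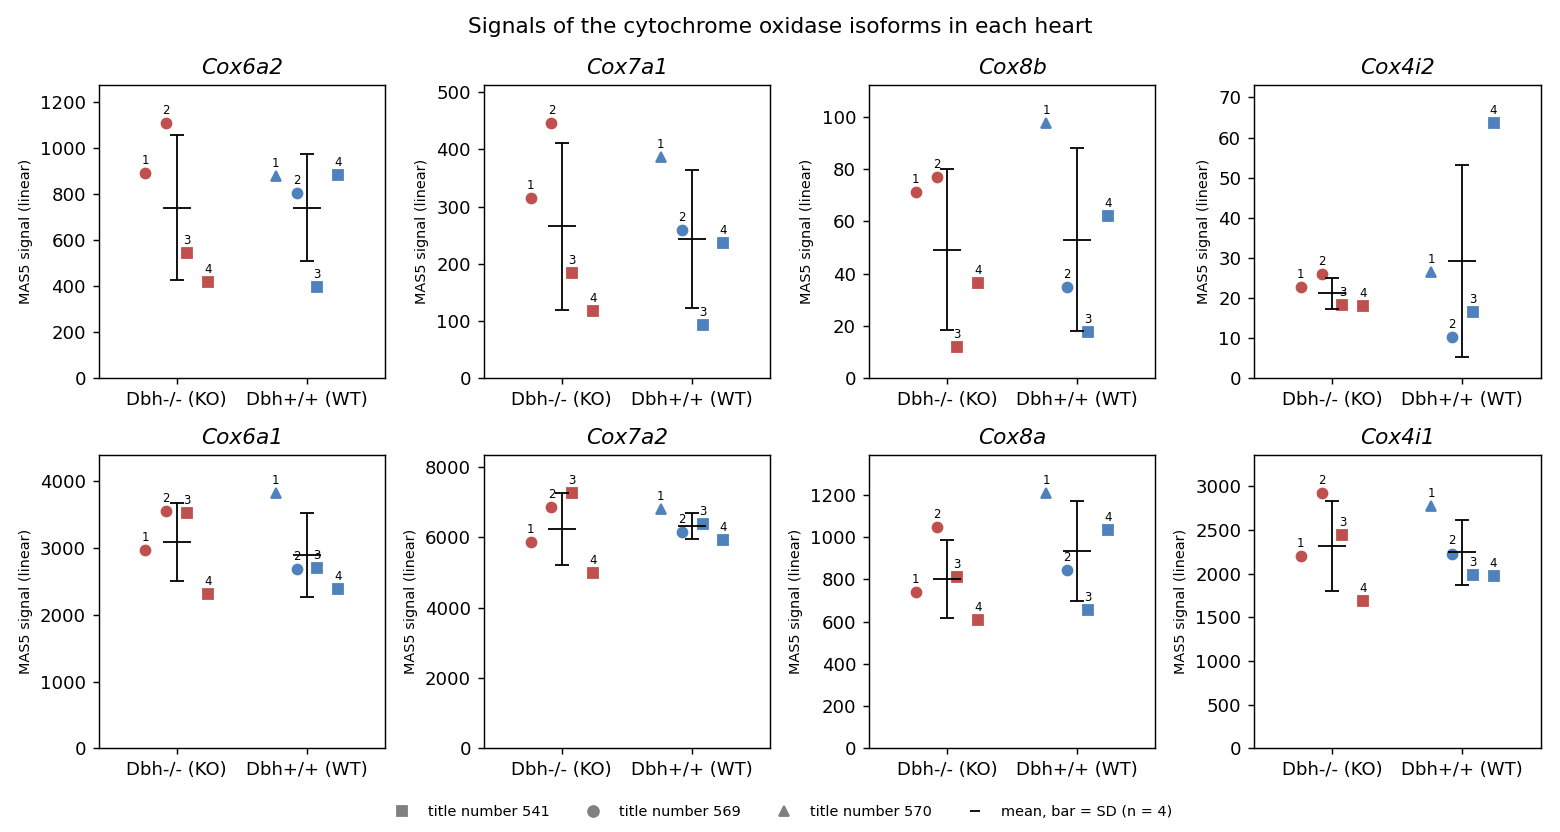
MAS5 signal on a linear axis from 0 for the brightest probe set of each of the 8 genes, KO hearts left (red) and WT hearts right (blue), with the heart's number above its point, the shape giving the number in the sample title, and bars for the mean ± SD (n = 4). KO and WT hearts overlap in all 8 panels, and KO 3, KO 4 and WT 3 lie at the bottom for Cox6a2 and Cox7a1.

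The balance of muscle to ubiquitous isoforms was then taken within each heart as a log2 ratio of signals, each plus 16. The added 16 leaves some dependence on how the arrays were scaled where signals are low: the Cox4i2 to Cox4i1 difference given below was -0.27 after quantile normalization, and the Cox8b to Cox8a difference was 0.058 with 1 added in place of 16. Because the 2 probe sets of a pair differ in brightness for reasons of their own, a ratio can be read between hearts but not as the proportion of the 2 transcripts. For subunit VIa, the Cox6a2 to Cox6a1 log2 ratio was -1.71, -1.67, -2.66 and -2.42 in KO hearts and -2.10, -1.72, -2.72 and -1.42 in WT hearts. The groups overlapped, with a KO mean of -2.11 ± 0.50 and a WT mean of -1.99 ± 0.56 (SD, n = 4 each), a difference of -0.13 ± 0.38 (SE) and an exact two-sided permutation p of 0.829.

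For subunit VIIa, the Cox7a1 to Cox7a2 log2 ratio was -4.15, -3.90, -5.19 and -5.23 in KO hearts and -4.08, -4.49, -5.88 and -4.56 in WT hearts. The 3 lowest were again KO 3, KO 4 and WT 3. The means were -4.62 ± 0.69 in KO and -4.75 ± 0.78 in WT, and the difference was 0.13 ± 0.52 (exact permutation p = 0.886).

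For subunit VIII, the Cox8b to Cox8a log2 ratio was -3.12, -3.51, -4.88 and -3.57 in KO hearts and -3.43, -4.08, -4.31 and -3.74 in WT hearts. KO 3 was lowest, followed by WT 3. The means were -3.77 ± 0.77 in KO and -3.89 ± 0.39 in WT, and the difference was 0.12 ± 0.43 (exact permutation p = 0.857).

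For subunit IV, the Cox4i2 to Cox4i1 log2 ratio was -5.84, -6.12, -6.17 and -5.65 in KO hearts and -6.04, -6.42, -5.95 and -4.65 in WT hearts. WT 4 stood above the other 7 hearts. The difference was -0.18 ± 0.41 (exact permutation p = 0.829). Over the 4 ratios the Benjamini-Hochberg adjusted p was 0.886 for each, where 70 assignments of the hearts allow an exact permutation p as small as 0.0286.

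The mean of the 3 muscle to ubiquitous log2 ratios was -2.99, -3.02, -4.25 and -3.74 in KO hearts and -3.20, -3.43, -4.30 and -3.24 in WT hearts. The KO hearts averaged -3.50 ± 0.60 and the WT hearts -3.54 ± 0.52 (SD, n = 4 each), a difference of 0.04 ± 0.40 (SE), while the 8 hearts spanned 1.31 log2 units, or 2.48-fold. Both genotypes therefore held hearts at either end of this span. Among hearts titled 541 the difference, KO minus WT, was -0.22, and among hearts titled 569 it was 0.42, where 569 has 1 WT heart. Without KO 3, KO 4 and WT 3, left out after their values were seen, it was 0.28.

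**Figure D2:**
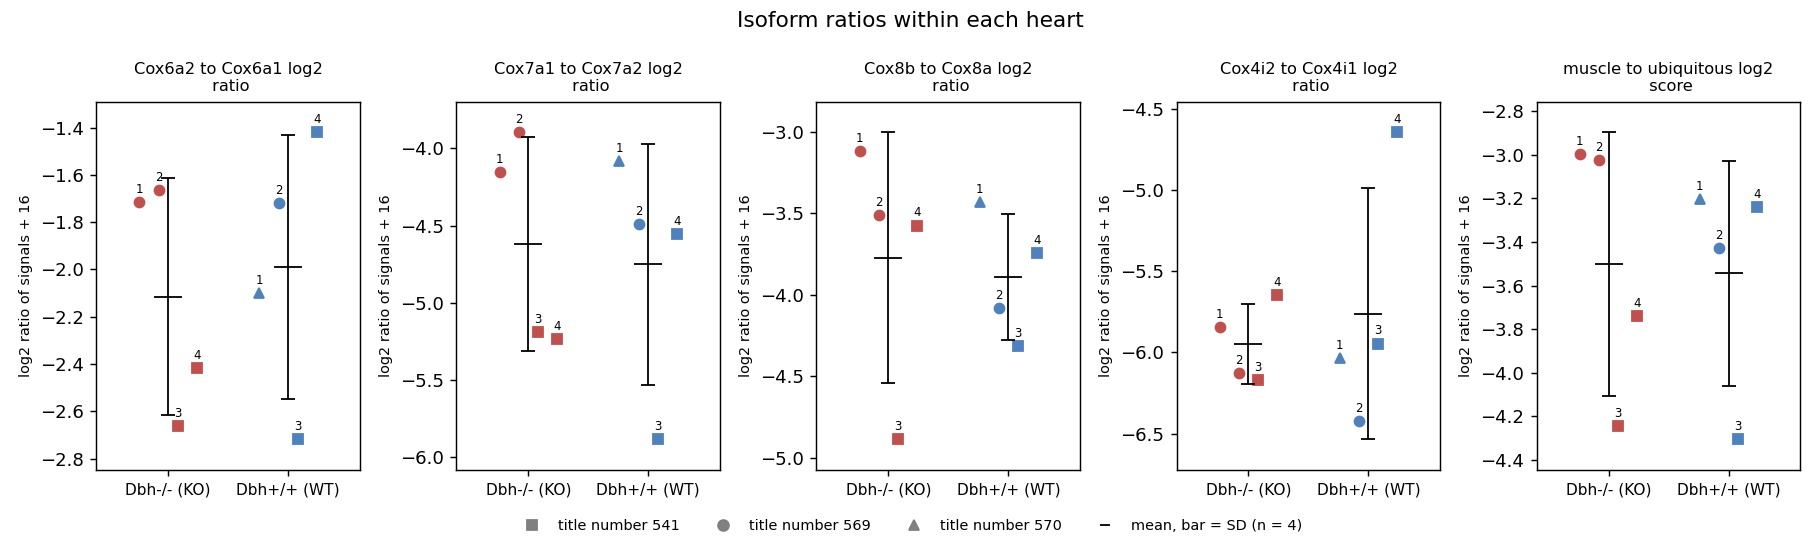
Log2 ratio of signals (each plus 16) within each heart for the 4 isoform pairs and, at the right, the mean of the 3 muscle to ubiquitous ratios, KO hearts left (red) and WT hearts right (blue), with bars for the mean ± SD (n = 4). Each panel has its own log2 axis, the genotypes overlap in every panel, and KO 3 and WT 3 are the lowest 2 hearts in the mean of the ratios, at -4.25 and -4.30.

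Within the title numbers, the genotype difference of the muscle isoforms was not of 1 sign. Among hearts titled 541, the log2 difference was -0.31 for Cox6a2, -0.03 for Cox7a1 and -0.43 for Cox8b. Among hearts titled 569, it was 0.30 for Cox6a2, 0.51 for Cox7a1 and 0.83 for Cox8b. The corresponding differences of the ubiquitous forms were 0.17 and 0.27 for Cox6a1, -0.03 and 0.05 for Cox7a2 and -0.23 and 0.06 for Cox8a, each pair giving the 541 hearts and then the 569 hearts. No test was made within a title number, which holds at most 2 hearts of a genotype.

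The isoforms differed in how much they varied over the 8 hearts, whatever the genotype. After quantile normalization, the SD over the hearts was 0.56 log2 units for Cox6a2, 0.73 for Cox7a1 and 0.77 for Cox8b. It was 0.13 for Cox6a1, 0.06 for Cox7a2 and 0.30 for Cox8a, so in each pair the muscle form varied more than its partner. The median over all 16292 tested probe sets was 0.25. Of all tested probe sets, 94.4% had a smaller SD than Cox6a2, 97.5% than Cox7a1 and 98.0% than Cox8b, against 8.62% for Cox6a1, 0.724% for Cox7a2 and 63.2% for Cox8a.

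As a fold between the highest and the lowest heart, the range was 2.76 for Cox6a2, 4.0 for Cox7a1 and 4.24 for Cox8b, and 1.25, 1.11 and 1.90 for Cox6a1, Cox7a2 and Cox8a. The subunit IV pair showed the same order, with 3.58 for Cox4i2 and 1.29 for Cox4i1. Cox8b and Cox4i2 also gave low signals, and the part of low signal in their spread was not tested. In each pair the steadier partner was also the brighter one, and the part of brightness in its small spread was not tested. The brightest Cox7a2 probe set, with a fold range of 1.11, was among the steadiest on the array. The second Cox7a2 set had a fold range of 1.25, and 6.41% of tested probe sets had a smaller SD.

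**Figure D3:**
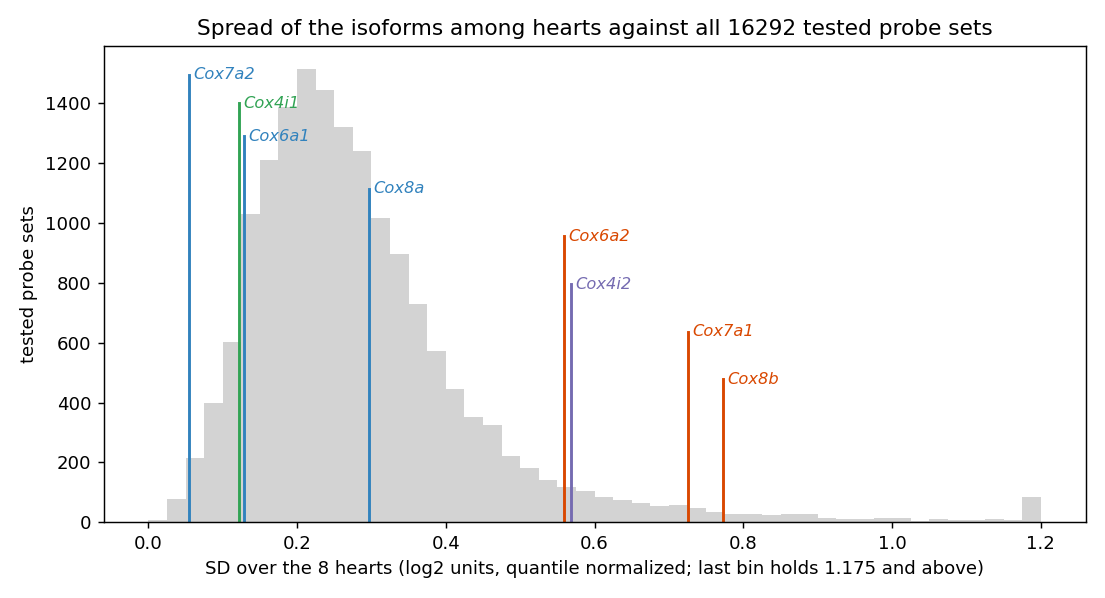
Histogram (grey) of the SD over the 8 hearts, in log2 units after quantile normalization, for all 16292 tested probe sets, with a coloured line at the SD of each isoform gene (orange muscle forms, blue ubiquitous partners, green Cox4i1, violet Cox4i2; line heights only separate the names). The 3 muscle forms lie in the right tail at 0.56 to 0.77, and Cox7a2, Cox4i1 and Cox6a1 lie in the left tail at 0.06 to 0.13.

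The 3 hearts lowest in the mean of the muscle isoforms were also lowest in cardiomyocyte and endothelial markers, and highest in erythroid markers and in the mean of the neuron and neural crest markers. The mean quantile-normalized log2 level of the 3 muscle isoforms, centred over the 8 hearts, was 0.73, 0.46, -0.83 and -0.38 in KO hearts and 0.41, 0.11, -1.0 and 0.51 in WT hearts. The same measure over 16 cardiomyocyte markers was -0.22 in KO 3, -0.28 in KO 4 and -0.97 in WT 3, and 0.22 to 0.36 in the other 5 hearts. Over 8 markers of neurons and neural crest it was 0.57 in KO 3, 1.35 in KO 4 and 0.26 in WT 3, and -0.59 to -0.30 in the other hearts. In WT 3 that mean rested on Crabp1 (1283) and Pax3 (203.6), while its Tubb3 (10.8) and Elavl4 (26.6) signals were the lowest of the 8 hearts.

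Endothelial markers averaged -0.23 in KO 3, -0.50 in KO 4 and -0.30 in WT 3, and 0.13 to 0.42 in the other hearts. Erythroid markers averaged 1.11 in KO 3, 0.86 in KO 4 and 0.71 in WT 3, and -1.34 to 0.32 in the other hearts. The low muscle isoforms thus went with shifts in markers of several cell types.

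KO 3, KO 4 and WT 3 were the lowest 3 hearts for 15 of 16 cardiomyocyte markers and for 2 of the 3 muscle isoforms, against 11.6% of all genes (1056 of 9126). The same held for 6 of 9 endothelial markers and 5 of 8 markers of smooth muscle and pericytes. The pattern was thus not limited to cardiomyocyte genes and muscle isoforms. It held for 1 of 7 markers of skeletal and branchial muscle. It held for 0 of 8 erythroid, 0 of 5 liver and endoderm and 0 of 8 neuron and neural crest markers. The mean of the smooth muscle and pericyte markers was -0.52 in WT 3, -0.30 in WT 4, -0.09 in KO 3 and 0.03 in KO 4. Among the muscle isoforms Cox8b was the exception, since WT 2 lay below KO 4. Of the ubiquitous partners only Cox8a, and of the subunit IV pair only Cox4i1, had these 3 hearts lowest. All 3 carry title number 541, whose other heart, WT 4, had muscle isoforms at 0.51.

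RNA quality moved with the same hearts. The signal ratio of the 5′ to the 3′ end of the actin control was 0.390 in KO 3, 0.401 in KO 4 and 0.407 in WT 3, and 0.483 to 0.527 in the other hearts. That of Gapdh was 0.686, 0.702 and 0.694 in these hearts, against 0.724 to 0.775 elsewhere. The part of cell makeup, title number and RNA quality in the low muscle isoforms was not tested.

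By genotype, the summed signals of the other marker lists overlapped, but a sum follows its brightest genes. The centred mean log2 levels overlapped as well. Their differences, KO minus WT, were 0.79 for erythroid markers and 0.50 for neuron and neural crest markers. They were 0.17 for smooth muscle and pericytes, 0.12 for skeletal and branchial muscle, -0.21 for endothelium and -1.20 for liver and endoderm. These differences were not tested. The summed signal of 12 markers of skeletal and branchial muscle, where the muscle isoforms are also made, was 330.8 to 763.1 in KO and 219.4 to 579.1 in WT, with Myf6, Tnnc2 and Chrna1 Absent in all 8 hearts. Liver and endoderm markers summed to 97.8 to 157.7 in KO hearts and to 10171 in WT 3, against 50.8 to 116.1 in the other WT hearts. Sums in KO and WT were 4743 to 8873 and 5100 to 8480 for smooth muscle and pericytes, 2281 to 5086 and 3267 to 4933 for endothelium, and 10727 to 23944 and 9018 to 19521 for erythroid cells, of which Hba-a1 was Absent in all hearts. The neuron and neural crest sum was 193.0 to 1771 in KO and 199.1 to 1651 in WT.

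Taken relative to the cardiomyocyte markers, the muscle isoforms varied less. Their quantile-normalized level minus that of the markers was 0.37, 0.16, -0.62 and -0.10 log2 units in KO hearts and 0.09, -0.16, -0.03 and 0.29 in WT hearts. The range over the 8 hearts was 0.98 log2 units, against 1.73 for the muscle isoforms alone. KO 3 alone remained far below the rest, and the difference between genotypes was -0.09 ± 0.23 (SE), with overlapping groups.

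**Figure D4:**
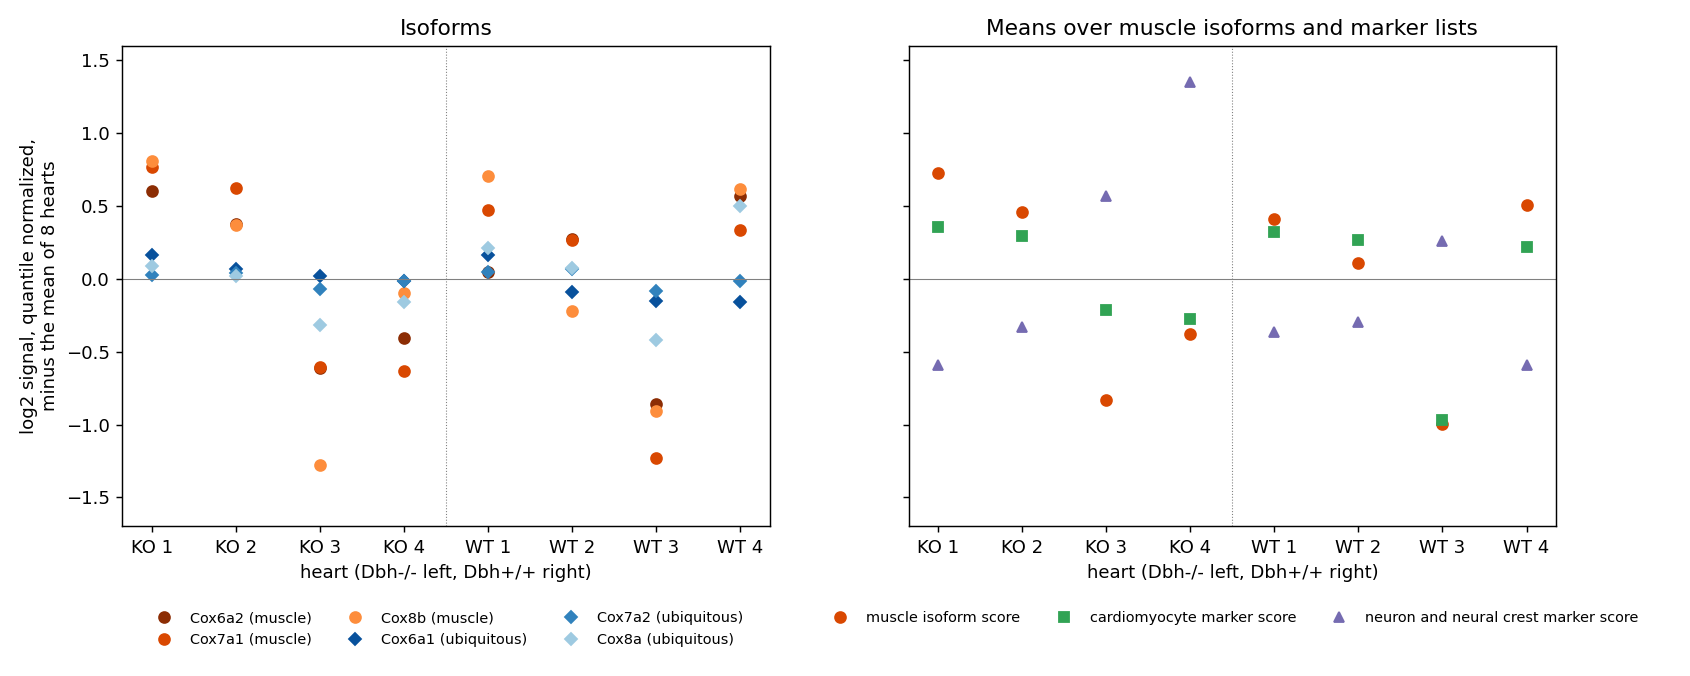
Log2 signal after quantile normalization, minus the mean of the 8 hearts, for each heart (KO left of the dotted line, WT right). The left panel shows the muscle forms as orange circles and the ubiquitous forms as blue diamonds, and the right panel shows means over the 3 muscle isoforms, 16 cardiomyocyte markers and 8 neuron and neural crest markers. KO 3, KO 4 and WT 3 are low in muscle isoforms (-0.83, -0.38 and -1.0) and cardiomyocyte markers and above 0 in neuron and neural crest markers.

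The genes whose pattern over the 8 hearts was most like that of each variable isoform were listed by Pearson's r on quantile-normalized log2 signals among 9118 genes, as a description with no test, since the points share the 8 arrays. For Cox7a1 they were Cavin1, a coat protein of caveolae, with r = 0.995, Tnni3, cardiac troponin I, with 0.991, and Hnrnpl, an RNA-binding splicing factor, with 0.989. Tnni3 signals were 1157, 1437, 701.0 and 470.3 in KO hearts and 1420, 1086, 405.6 and 995.0 in WT hearts, lowest in the hearts where Cox7a1 was lowest. For Cox6a2 they were Map3k8 and Stk39, both protein kinases, and Hspa2, a heat shock protein, each with r = 0.988.

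For Cox8b the nearest were Stard5, a lipid-transfer protein (0.983), Taok1, a protein kinase (0.982), and Clip4 (0.974). For Cox4i2 they were Phf20l1 (0.982), Kmt5b, a histone H4 methyltransferase (0.981), and Zfp654 (0.979). Kmt5b had 277.8, 352.5, 314.6 and 265.2 in KO hearts and 413.5, 206.6, 284.3 and 890.3 in WT hearts, so WT 4 stood out there as it did for Cox4i2.

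The rest of the enzyme was examined as lists. Of 11 other nuclear subunits, 8 were tested and 0 were called, with 4 above and 4 below 0 and a median log2 difference of 0.02. Cox6b2, an isoform of subunit VIb best known from testis, had the largest difference among them, with signals of 74.0, 159.0, 253.3 and 147.9 in KO hearts and 79.5, 63.5, 169.8 and 94.1 in WT hearts. The groups overlapped and the log2 difference was 0.54 ± 0.33 (SE, limma adjusted p = 0.99998). Cox6c had 2440 ± 425.7 in KO and 2202 ± 542.4 in WT, and Cox5b had 3987 ± 710.5 and 3631 ± 626.8 (SD, n = 4 each).

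Cytochrome c, which brings electrons to the complex, was represented by Cycs, the somatic form, with 2693 ± 758.2 in KO and 2796 ± 710.8 in WT, and by Cyct, the testis form, with 8.93 ± 3.68 and 14.12 ± 6.38. Of 30 assembly factors, 21 were tested and 0 were called, with 15 above and 6 below 0 and a median of 0.06. Cox19, which takes part in copper delivery to the complex, had a log2 difference of 0.44 ± 0.30, Cox18, which inserts a core subunit into the membrane, 0.32 ± 0.32, and Coa6, also of the copper pathway, 0.28 ± 0.30 (SE).

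Of 24 regulators of mitochondrial biogenesis and of the isoforms, 21 were tested and 0 were called, with 7 above and 14 below 0 and a median of -0.05. Ppargc1a, a coactivator of mitochondrial biogenesis, had signals of 661.2, 902.0, 508.9 and 349.6 in KO hearts and 1251, 728.3, 423.3 and 806.9 in WT hearts. Its 3 lowest hearts were KO 3, KO 4 and WT 3 as well, and the log2 difference was -0.38 ± 0.31 (SE). Esrra, an orphan nuclear receptor that acts with Ppargc1a, had 0.29 ± 0.23 at signals of 22.4 ± 8.21 in KO and 15.1 ± 4.13 in WT. Gabpa, an ETS factor that binds promoters of nuclear respiratory genes, had -0.27 ± 0.29.

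A further list held 15 genes of muscle and energy supply, not all of them enzymes or muscle isoforms. Of these, 12 were tested and 0 were called, with 7 above and 5 below 0 and a median of 0.06. Pgam2, the muscle phosphoglycerate mutase, had 852.9, 938.2, 406.1 and 348.2 in KO hearts and 919.9, 560.4, 238.6 and 302.4 in WT hearts. Hearts titled 541 were the 4 lowest, and the log2 difference was 0.39 ± 0.36 (SE). Ldhb, the heart form of lactate dehydrogenase, had 0.36 ± 0.26, and Ckmt2, the muscle form of mitochondrial creatine kinase, 0.28 ± 0.23 at signals of at most 18.8.

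These lists also differed in their spread over the hearts. The median fold between the highest and the lowest heart was 4.0 over the 3 muscle isoforms of cytochrome oxidase. It was 2.43 over the 12 genes of muscle and energy supply and 2.57 over the 16 cardiomyocyte markers. It was 1.25 over the 3 ubiquitous partners, 1.51 over the other subunits, 1.49 over the assembly factors, 1.62 over the regulators and 1.67 over all 9126 genes. The 3 lowest hearts were KO 3, KO 4 and WT 3 for 7 of the 12 genes of muscle and energy supply, among them Fabp3 and Mb. The same held for 2 of 8 other subunits, 1 of 21 assembly factors and 5 of 21 regulators. These counts are descriptions, and no test of the lists against each other was made.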

How the data were processed

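Expression was measured in 8 single hearts, 4 KO and 4 WT, on Affymetrix arrays hybridised by GeneLogic, per the labels. Per the file headers, the deposited intensity values are MAS5 signals, which are linear. The MAS5 version, scaling target and genome build are not given in the sources used here. The authors' detection calls (Present, Marginal or Absent) are MAS5 calls, per the file headers. A signed fold score (WT over KO), per the file headers, was deposited too and is not printed. For the authors' deposited p-value, the deposited legend names a Student test on signals and the methods name an unequal-variance test. The deposited quality report gives the ratio of 5′ to 3′ signal for actin and Gapdh.

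Names came from the platform annotation, updated by gene identifier: 20393 of the 22690 probe sets carried 1 symbol, 691 carried several and 1606 carried none. Probe sets Present in at least 3 of 8 arrays were tested, control sets left out. KO minus WT was fitted with limma (version 3.58.1, R 4.3.3; lmFit, eBayes with trend) on log2(signal + 16), with no further scaling, and p-values were adjusted by Benjamini-Hochberg over all 16292 probe sets. Each gene was represented by the tested probe set of highest mean log2 signal. For the isoform ratios, KO and WT were compared with an exact permutation test (two-sided). Spread over hearts, marker levels and likeness used quantile-normalized values. Means of log2 levels over lists were centred per gene over the 8 hearts. The fit was tested on simulated data.

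The genes and lists were chosen with earlier results of these data known. Named were the 8 isoform genes, the 3 genes of each pathway list with the smallest unadjusted p, the 2 brightest genes of a marker list where used, and the 3 genes most like each of Cox6a2, Cox7a1, Cox8b and Cox4i2. Fabp3, Mb, Pax3, Tubb3, Elavl4 and the markers Absent in all hearts were named after their values were seen. Alternatives were quantile normalization, median centring, pseudocounts of 1 and 64, no detection filter, all probe sets of a gene, the methods' unequal-variance test, the title number as a block and leaving out hearts. Precision depends on 4 hearts per group, and an array has no read count. No protein sequences were used here.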

Additional observations from a re-analysis of the deposited data

Results flagged for a closer look

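In the WT hearts, WT 3 lay far below the others for Cox6a2, with a gap of 0.884 of the group's whole range on the log2 scale. WT 3 was likewise far below the others for Cox8a on its second probe set, with a gap of 0.870 of the range. The brightest Cox8a probe set was also lowest in WT 3 among the WT hearts. Chance alone marks about 1 group in 20 in this way. WT 3 is the heart with the highest liver and endoderm markers and the lowest cardiomyocyte markers, and the part of either in these low values was not tested.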

How the results depend on the processing

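In 139 alternative values of the 8 genes' differences, 114 kept their direction, 25 turned it and 0 had a limma or unequal-variance adjusted p under 0.05 (smallest 0.970). The differences are log2, except linear for the unequal-variance test. Values without the detection filter equal those reported, so their direction could not turn. Turned values apart from single hearts left out were, without KO 3, KO 4 and WT 3 (chosen after seeing the data), 0.21 for Cox6a2, 0.23 for Cox8b, 0.014 for Cox7a2 and 0.056 for the Cox6a2 to Cox6a1 ratio. With the title number as a replicate block Cox8b gave 0.076, and 0.0022 with quantile normalization added. Cox7a2 over both probe sets gave 0.0017, and Cox4i1 after median centring -0.016. With 1 heart left out at a time, the log2 difference ranged from -0.30 to 0.20 for Cox6a2, -0.27 to 0.41 for Cox7a1, -0.39 to 0.27 for Cox8b, 0.01 to 0.23 for Cox6a1, -0.11 to 0.073 for Cox7a2, -0.36 to -0.08 for Cox8a, -0.088 to 0.17 for Cox4i1 and -0.37 to 0.16 for Cox4i2. The ratios ranged from -0.37 to 0.064 for Cox6a2 to Cox6a1, -0.24 to 0.36 for Cox7a1 to Cox7a2, -0.10 to 0.49 for Cox8b to Cox8a and -0.40 to 0.19 for Cox4i2 to Cox4i1, and the mean of the muscle ratios from -0.21 to 0.29. Of 55 alternatives for the ratios, 9 turned direction, and the smallest exact permutation p was 0.171. Counts of called probe sets, 0 as reported, were 40 with the title number as a replicate block, 0 with that block after quantile normalization, 72 without WT 3, 30 without KO 1, 3 without KO 3, KO 4 and WT 3, and 0 in the other alternatives, and none of these calls was among the isoform genes. The cause of these changes was not tested. The labels do not say that title numbers mark litters or days, and WT 1 is alone in its number and adds nothing to a block. Median log2 differences over all probe sets were 0.008 as deposited, -0.040 median-centred and -0.005 after quantile normalization. Low signal limits Cox8b and Cox4i2.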
